A study of Mus musculus with 12 samples.

Results

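REST is the transcriptional repressor that keeps neuronal genes silent outside neurons by binding a DNA element called RE1 and recruiting corepressors, among them CoREST, the product of Rcor1. Wild-type huntingtin is thought to hold REST in the cytoplasm. A proposed effect of mutant huntingtin is that more REST enters the nucleus and represses RE1 genes further, Bdnf, the gene of brain-derived neurotrophic factor, being the best known of them in the striatal field. The genes followed here were Rest, Rcor1, Bdnf and 6 neuronal genes with RE1 elements: Stmn2 and Stmn3, which encode microtubule-binding stathmins, Snap25 and Syp, which encode proteins of synaptic vesicle release, and Scg2 and Vgf, which encode precursors of secreted peptides. Every probe set whose annotation names 1 of these 9 genes was taken, which gave 19 of 45101 probe sets on the array: 4 of Rest, 3 of Rcor1, 2 each of Bdnf, Stmn2, Stmn3, Snap25 and Syp, and 1 each of Scg2 and Vgf.

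The cells were 2 immortalized mouse lines of embryonic striatal origin, STHdhQ111/Q111 (Q111 cells), homozygous for a knock-in huntingtin allele with an expanded glutamine tract, and STHdhQ7/Q7 (Q7 cells), which have the wild-type tract length. Each line was profiled after 6 h of heat shock at 42 °C and under growth at 33 °C, with 3 arrays in each of the 4 groups, Q111 at 42 °C, Q111 at 33 °C, Q7 at 42 °C and Q7 at 33 °C. All groups were grown in serum with G418 and used up to a limited passage number, per the labels' protocols. Each genotype is 1 line, so genotype and line cannot be told apart. Whether the 3 arrays of a group came from separate cultures is not stated, and the p-values therefore cover the spread among these arrays alone, which may be technical.

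Levels are log2 values per probe set, a difference of 1 being a 2-fold change, and the level of one probe set cannot be set against that of another. A level at or below 5.14, the highest that any of 27 bacterial control probe sets, whose RNA was not spiked in, reached on any array, is called background range. Of the 19 probe sets 8 were above it on all 12 arrays, 2 were within it on all 12 and 9 were mixed. Differences are given with their standard error (SE), and a probe set is said to have changed where limma's moderated test passed at an adjusted p under 0.05 over all 45037 non-control probe sets. Less RNA per cell and fewer cells that express a gene cannot be told apart in such bulk samples.

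Hspa1a, a heat-shock chaperone gene, had 12.43 ± 0.26 in Q111 cells at 42 °C, against 5.95 ± 0.33 at 33 °C, and 11.45 ± 0.04 in Q7 cells at 42 °C, against 5.96 ± 0.37 at 33 °C (SD, n = 3 arrays). The brightest of 4 Htt probe sets had 7.58 ± 0.25 in Q111 cells and 8.87 ± 0.10 in Q7 cells at 33 °C. The 3' minus 5' level of the beta actin controls, a measure of RNA integrity, was 1.25 ± 0.23 at 42 °C, against 0.72 ± 0.36 at 33 °C, in Q111 cells, and it was 1.48 ± 0.12, against 0.54 ± 0.16, in Q7 cells, so it moved with heat shock. Of 7 neural progenitor markers, 4 were called lower in Q111 cells at 33 °C (Nes, Sox2, Pax6 and Fabp7) and 4 at 42 °C. Of all genes 4.86% were called lower at 33 °C and 13.9% at 42 °C. The mean level of the progenitor list was 5.01 to 5.31 per array in Q111 cells and 7.46 to 7.57 in Q7 cells at 33 °C. Of 6 fibroblast markers 2 (Col1a2 and Fbln1) were called higher in Q111 cells at 33 °C, where 4.52% of all genes were. Their list mean was 8.57 to 8.66 in Q111 cells, against 6.97 to 7.03 in Q7 cells. Of 7 measured markers of striatal projection neurons, 2 in Q111 cells (Pde10a and Rgs9) and 3 in Q7 cells (the same and Tac1) had a group mean above background range at 33 °C. At 42 °C 4 did in Q111 cells and 5 in Q7 cells, Bcl11b and Drd1 being added in both lines, and Ppp1r1b and Drd2 had none in any of the 4 groups. The part of these cell-type and RNA measures in the results below was not tested.

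The consensus RE1 element pairs a left part, TTCAGCACC, with a right part, GGACAGC. Both were searched on either strand, in that order and with up to 12 bases between them, in promoter windows of 250 bases before to 50 bases after the annotated starts (RefSeq, build GRCm38.p6); the parts do not overlap each other. There were 11 windows for 5 of the 9 genes, 7 of them for Bdnf and 1 each for Rcor1, Stmn3, Syp and Scg2. Of all 32851 windows 0.371% held the left part, 6.56% the right part and 0.0365% (12 windows) both. Among the 11 windows 1 held both, that of Scg2, with no base between the parts. Any gap up to 12 bases was accepted, so this pair need not have the spacing of the consensus. It is called the element below only for short. It is shown because it is the only such match among these genes; the element lies on the strand opposite to the gene, at chr1:79440025-79440040, from 14 bases before the start to the second transcribed base. The first line below is the element on its own strand, and the next the minus strand of chr1:79440025-79440276, with the element in capitals.
Scg2 element: TTCAGCACCGGACAGC
Scg2 promoter: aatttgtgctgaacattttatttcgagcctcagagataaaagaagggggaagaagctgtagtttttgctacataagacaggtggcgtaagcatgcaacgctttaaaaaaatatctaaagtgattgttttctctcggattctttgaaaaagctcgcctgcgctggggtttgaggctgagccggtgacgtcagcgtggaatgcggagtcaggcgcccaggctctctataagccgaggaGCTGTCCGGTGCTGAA
A missing match says only that these letters are not in these windows, and a match is a description of sequence, not of binding.

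At 33 °C Stmn2 was the only 1 of the 9 genes called between the lines. Of the 19 probe sets, Q111 cells had 0 higher and 2 lower than Q7 cells, both of them of Stmn2, where 3.16% of all probe sets were called higher and 3.62% lower, and 5 of the 19 had an unadjusted p under 0.05. The median difference of the 19 was 0.03, and that of all probe sets 0.00. By the brightest probe set of each gene 0 of the 9 genes were higher and 1 lower, against 4.52% and 4.86% of all 18193 genes.

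Stmn2, an early neuronal growth-cone gene on chromosome 3 (chr3:8509527-8561604), was above background range on every Q7 array and within background range in Q111 cells at 33 °C. Its probe set 1423281_at read 4.84, 4.89 and 4.16 on the Q111 arrays, against 10.996, 11.50 and 11.11 on the Q7 arrays. The groups lie far apart, and all 3 Q111 values are in background range. The difference was -6.57 (SE 0.39, adjusted p = 1.76e-06), which is at least 66.5-fold lower when the Q111 level is set at the background bound. Probe set 1423280_at read 4.18, 4.25 and 4.28 on the Q111 arrays, against 9.53, 9.66 and 9.13 on the Q7 arrays, a difference of -5.20 (SE 0.18, adjusted p = 6.23e-08) and at least 19.6-fold lower. Both probe sets thus gave the same direction with no overlap of arrays, and both calls held in every alternative run, which were 24 and 23.

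Rest itself, the repressor (chr5:77265494-77286432), was highly expressed in both lines. Its brightest probe set, 1428227_at, read 12.19, 11.77 and 11.84 on the Q111 arrays, against 11.80, 11.22 and 11.30 on the Q7 arrays at 33 °C. The arrays overlap, and the difference of 0.49 (SE 0.18, 95% interval 0.09 to 0.89) did not pass (adjusted p = 0.181). The next brightest, 1425565_at, differed by 0.31 (SE 0.19, adjusted p = 0.553), and the dimmer 1425564_at and 1425566_at by 0.11 and 0.13 (adjusted p = 0.986 and 0.975). All 4 point estimates were above 0 and none passed. Arrays of the same number deviated together at 33 °C, and in the fit of these 2 groups with the replicate number as a block 1428227_at passed (adjusted p = 0.047), whereas the block with all 12 arrays gave an adjusted p of 0.164.

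Bdnf (chr2:109674700-109727043), the neurotrophin gene, was expressed in both lines and its difference did not pass at 33 °C. Probe set 1422169_a_at read 10.36, 10.07 and 9.63 on the Q111 arrays, against 9.84, 9.24 and 8.75 on the Q7 arrays, a difference of 0.74 (SE 0.26, 95% interval 0.16 to 1.32, adjusted p = 0.157). Probe set 1422168_a_at read 9.75, 9.40 and 9.82 on the Q111 arrays, against 9.13, 9.41 and 9.03 on the Q7 arrays, a difference of 0.47 (SE 0.17, 95% interval 0.09 to 0.85, adjusted p = 0.183). For both the arrays overlap and the point estimate is above 0. With the replicate number as a block in these 2 groups 1422169_a_at passed as higher in Q111 cells (adjusted p = 0.0129) and 1422168_a_at did not (adjusted p = 0.156), while with the actin measure as a covariate 1422168_a_at passed as higher (adjusted p = 0.0474). Without replicate 1 of the Q7 arrays at 33 °C, 1422169_a_at was called higher too. An ending _a_at marks a probe set that matches several transcripts of 1 gene, and Bdnf has many alternative first exons, so neither value belongs to a single promoter.

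Rcor1, the corepressor scaffold, gave 0.03 (SE 0.15), 0.17 (SE 0.18) and -0.11 (SE 0.23) for its 3 probe sets at 33 °C, with adjusted p-values of 0.993, 0.849 and 0.975. The other neuronal genes were near or within background range in both lines. Syp 1448280_at averaged 5.03 in Q111 and 4.95 in Q7 cells, and Stmn3 1435113_x_at averaged 5.40 in Q111 and 5.58 in Q7 cells. Vgf averaged 5.14 in Q111 and 5.28 in Q7 cells. Scg2, whose promoter holds the pair of parts shown above, read 3.20, 3.35 and 3.06 on the Q111 arrays. It read 3.05, 2.99 and 3.36 on the Q7 arrays, and all of these values are within background range. Snap25 1416828_at read 2.70, 2.999 and 5.63 in Q111 cells and 3.09, 3.14 and 5.69 in Q7 cells, so in each line the third array stood more than 2 log2 units above the other two.

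**Figure D1:**
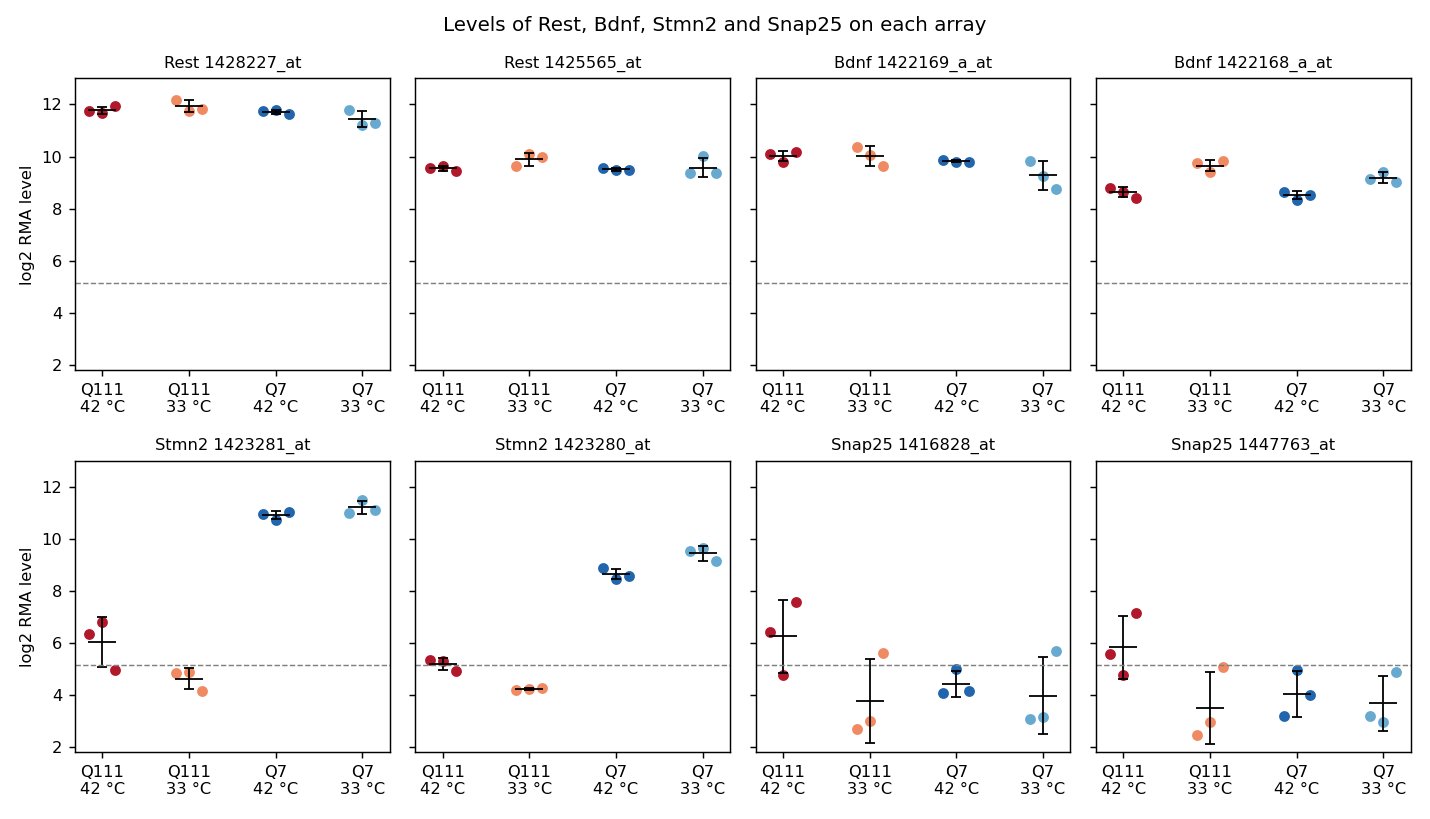
Log2 levels on each array for the 2 brightest probe sets of Rest and for both probe sets of Bdnf, Stmn2 and Snap25, with the 4 groups on the x axis. Points are arrays, black bars the mean and SD of 3 arrays, and the dashed line the background bound of 5.14; the Stmn2 points lie between 4.16 and 6.82 in Q111 cells and between 8.48 and 11.50 in Q7 cells.

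With heat shock Stmn2, 1 probe set of Snap25 and 1 each of Rest, Rcor1 and Bdnf passed in Q111 cells. Of the 19, 3 rose and 3 fell in Q111 cells, where 19.8% of all probe sets were called higher and 22.3% lower. In Q7 cells 0 rose and 2 fell, against backgrounds of 10.0% and 14.1%. The median change of the 19 was -0.11 in Q111 cells, against 0.05 for all probe sets, and -0.05 in Q7 cells, against 0.02. By the brightest probe set 1 of 9 genes rose and 0 fell in Q111 cells (18.5% and 27.2% of all genes), and 0 rose and 0 fell in Q7 cells (11.2% and 16.8%); 4 of the 19 probe sets had an unadjusted p under 0.05 in Q7 cells. As shares of the 19 probe sets and of the 9 genes these counts are below those over the whole array. The scale matters for heat shock: centring each array on the median of the genes' brightest probe sets, an alternative chosen after seeing the data, moved the change of all probe sets by 0.73 in Q111 and 0.35 in Q7 cells and gave 13 higher and 0 lower in Q111, and 4 higher and 1 lower in Q7 cells.

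Bdnf probe set 1422168_a_at fell with heat shock in both lines. It read 8.81, 8.64 and 8.43 at 42 °C, against 9.75, 9.40 and 9.82 at 33 °C, in Q111 cells, a change of -1.03 (SE 0.17, adjusted p = 0.000954). In Q7 cells it read 8.65, 8.35 and 8.52 at 42 °C, against 9.13, 9.41 and 9.03 at 33 °C, a change of -0.68 (SE 0.17, adjusted p = 0.0143). Arrays did not overlap in either line. The calls were lost when arrays were centred on the median of genes, where the changes were -0.30 and -0.33, and in Q7 cells also with the actin measure as a covariate (-0.05, adjusted p = 0.975). The other probe set did not follow: 1422169_a_at changed by 0.00 (SE 0.26, adjusted p = 0.995) in Q111 cells, with 10.10, 9.81 and 10.16 at 42 °C, and by 0.55 (SE 0.26, adjusted p = 0.167) in Q7 cells, with 9.86, 9.80 and 9.81. The 2 probe sets of Bdnf thus disagree on heat shock, and no change of the gene as a whole is given. The difference between the lines' heat shock effects was -0.35 (SE 0.24, adjusted p = 0.507) for 1422168_a_at and -0.54 (SE 0.37, adjusted p = 0.497) for 1422169_a_at.

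Stmn2 1423280_at rose with heat shock in Q111 cells and fell in Q7 cells. In Q111 cells 1423281_at read 6.34, 6.82 and 4.98 at 42 °C, against 4.84, 4.89 and 4.16 at 33 °C, a rise of 1.42 (SE 0.39, adjusted p = 0.0144). This call was lost with only the groups compared (adjusted p = 0.0601), with the actin measure as a covariate (adjusted p = 0.112), at an adjusted p under 0.01 and without replicate 3 of Q111 at 33 °C (1.18, adjusted p = 0.0554). At 42 °C 2 of 3 Q111 arrays were above background range, and with the 33 °C level set at the bound the rise is at least 1.87-fold. 1423280_at read 5.34, 5.32 and 4.93 at 42 °C in Q111 cells and rose by 0.96 (SE 0.18, adjusted p = 0.00185), with 2 of 3 arrays above the bound by so little that no limit of its fold is given. In Q7 cells 1423280_at read 8.88, 8.48 and 8.59 at 42 °C, against 9.53, 9.66 and 9.13 at 33 °C, a change of -0.79 (SE 0.18, adjusted p = 0.00815). That call was lost with the actin covariate (-0.56, adjusted p = 0.593). 1423281_at read 10.97, 10.72 and 11.04 at 42 °C in Q7 cells and changed by -0.29 (SE 0.39, adjusted p = 0.653). The heat shock effect in Q111 minus that in Q7 cells was 1.76 (SE 0.26, adjusted p = 0.00837) for 1423280_at and 1.71 (SE 0.56, adjusted p = 0.14) for 1423281_at. Of the 19 probe sets 1423280_at was the 1 called for the difference of effects, as higher, with 0 called lower, where 0.611% of all probe sets were called higher and 2.07% lower (0.841% and 2.96% of genes by their brightest probe set). Because the Q111 levels at 33 °C are in background range, the size of that rise is uncertain on this scale.

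After heat shock the lines still differed in Stmn2. The difference of Q111 from Q7 cells at 42 °C was -4.86 (SE 0.39, adjusted p = 2.22e-05) for 1423281_at and -3.45 (SE 0.18, adjusted p = 1.07e-06) for 1423280_at. In all, 0 of 19 probe sets were higher and 3 lower in Q111 cells at 42 °C, where 4.73% of all were called higher and 10.7% lower, and by brightest probe set 0 genes were higher and 1 lower (5.50% and 13.9%). The third was Rcor1 1437545_at, which read 7.56, 6.62 and 6.82 on the Q111 arrays, against 7.83, 7.86 and 7.62 on the Q7 arrays, a difference of -0.77 (SE 0.23, adjusted p = 0.0481). Arrays did not overlap, but the call held in only 5 of 23 alternatives: among single arrays, it held only when replicate 1 of Q111 at 42 °C or replicate 2 of Q7 at 33 °C was left out, and otherwise adjusted p reached as high as 0.212 over the alternatives. Its other probe sets differed by -0.41 (SE 0.15, adjusted p = 0.0873) and -0.51 (SE 0.18, adjusted p = 0.0743).

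A dimmer probe set of Rest and the dimmest of Rcor1 fell with heat shock in Q111 cells, while their other probe sets did not pass. Rest 1425564_at read 5.15, 5.42 and 4.39 at 42 °C, against 6.18, 6.04 and 6.22 at 33 °C, a change of -1.16 (SE 0.35, adjusted p = 0.0201), and the call was lost without replicate 3 of Q111 at 42 °C (-0.86) and without replicate 1 or 3 of Q111 at 33 °C (-1.15 and -1.13). Rest 1428227_at read 11.76, 11.66 and 11.93 at 42 °C in Q111 cells and changed by -0.14 (SE 0.18, adjusted p = 0.542), and in Q7 cells by 0.28 (SE 0.18, adjusted p = 0.304). Rcor1 1437545_at changed by -1.13 (SE 0.23, adjusted p = 0.00322) in Q111 cells, from arrays that did not overlap, while 1434336_s_at and 1454932_at changed by -0.11 and -0.35 (adjusted p = 0.579 and 0.127). With arrays centred on the median of genes neither fall was called (-0.44 and -0.41), and Rest 1428227_at was called higher (0.58, adjusted p = 0.0487). With the actin measure as a covariate both calls were lost (-0.81 and -0.68).

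Snap25, the SNARE protein gene of the synaptic membrane, rose in Q111 cells by 1 of its 2 probe sets. 1447763_at read 5.58, 4.77 and 7.16 at 42 °C, against 2.47, 2.96 and 5.06 at 33 °C, a change of 2.34 (SE 0.81, adjusted p = 0.0377), at least 1.61-fold with the 33 °C level set at the bound, but at least 1.02-fold without replicate 3 of Q111 at 42 °C. 1416828_at read 6.43, 4.76 and 7.57 at 42 °C, against 2.70, 2.999 and 5.63 at 33 °C, a change of 2.48 (SE 0.93, adjusted p = 0.0516). Arrays overlap for both, and the third array at 33 °C stood above the others. Arrays of the same number deviated together only weakly in this comparison (r = 0.118, 0.257 and 0.304). With the replicate number as a block both passed (adjusted p = 0.0103 and 0.0165). The call of 1447763_at was lost without replicate 1 or 3 of Q111 at 42 °C (2.46 and 1.68), replicate 1 or 2 of Q111 at 33 °C (1.82 and 2.07) or replicate 3 of Q7 at 42 °C (2.34). This call was also lost with only the groups compared, with the actin measure as a covariate and at an adjusted p under 0.01. It held in 14 of 22 alternatives. In Q7 cells the changes were 0.37 and 0.45 (adjusted p = 0.795 and 0.782), and the difference of the lines' effects, 1.97 and 2.03, did not pass (adjusted p = 0.417 and 0.473). At 42 °C Q111 minus Q7 cells gave 1.79 and 1.84 (adjusted p = 0.164 and 0.209). Beside this, 5 of 8 neuron markers rose with heat shock in Q111 cells (mean level of the list 6.39 to 6.66 at 42 °C, against 5.41 to 5.76 at 33 °C) and 2 of 8 in Q7 cells (5.63 to 6.27 at 42 °C, against 5.13 to 5.58 at 33 °C), where 18.5% and 11.2% of all genes rose. Markers of other cell types rose too in Q111 cells, 3 of 6 of astrocytes (median change 0.86, against 0.82 for the neuron markers), 3 of 7 of striatal projection neurons and 2 of 5 of endothelium. Stmn3, Syp, Scg2 and Vgf passed no test in any comparison of the main fit. Of these Vgf in Q7 cells came nearest, with 4.92, 4.04 and 4.58 at 42 °C, against 5.59, 5.62 and 4.63 at 33 °C (-0.77, SE 0.30, adjusted p = 0.0868). It was called without replicate 3 of Q7 at 33 °C (adjusted p = 0.0149). With arrays centred on the median of genes, Stmn3, Syp and Scg2 were called for heat shock in Q111 cells. So was a Syp probe set in Q7 cells. Scg2 was called in Q111 cells after quantile normalization too.

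**Figure D2:**
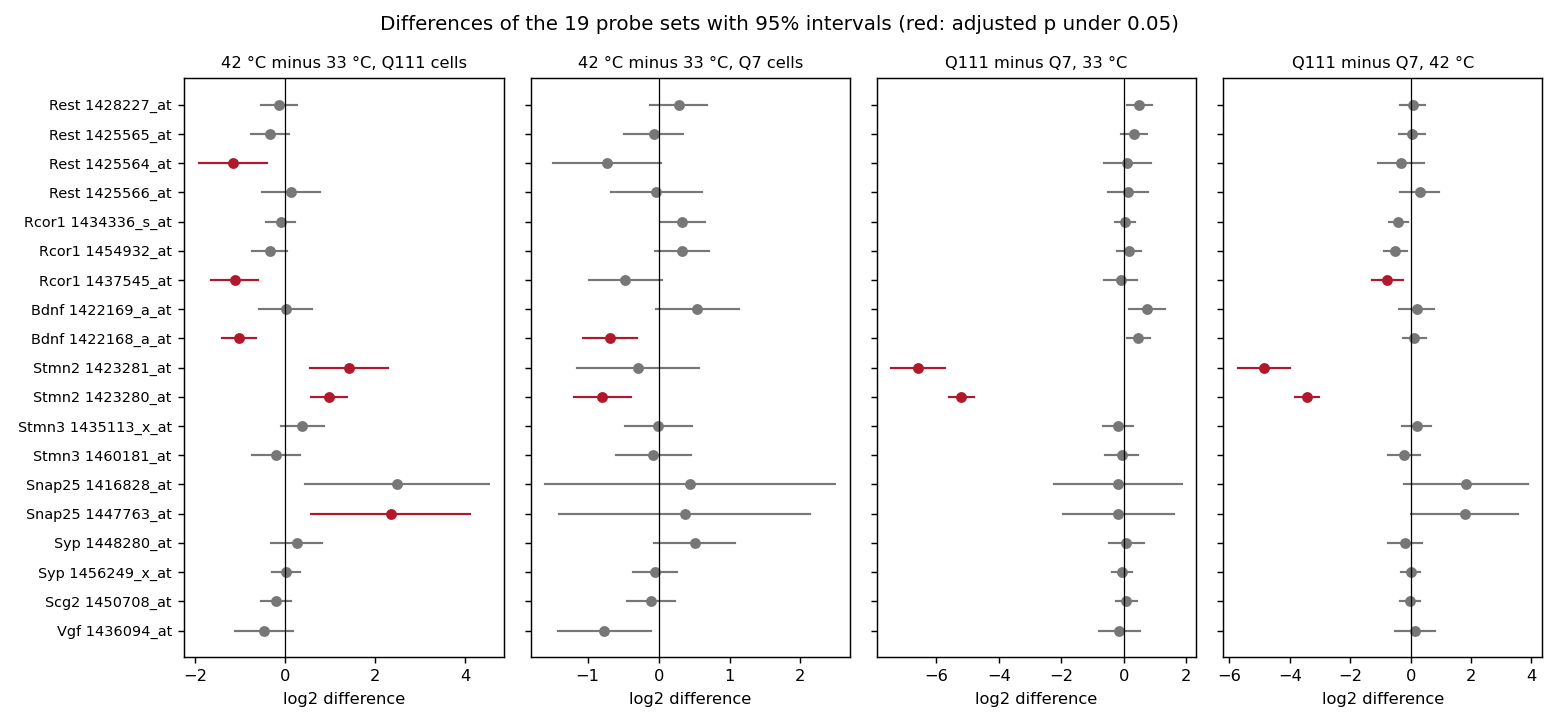
Log2 differences (points) with 95% intervals (lines) of the 19 probe sets, with heat shock in each line and Q111 minus Q7 cells at each temperature in panels of different x scale, and red marking an adjusted p under 0.05. Between the lines the Stmn2 probe sets stand at -6.57 and -5.20 at 33 °C and the others lie within 1 log2 unit of 0.

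The lists that follow were drawn up around REST with earlier results of these data known, and each gene is shown by its brightest probe set. Of 17 measured corepressor and small phosphatase genes, 13 fell and 1 rose with heat shock in Q111 cells and 4 fell and 0 rose in Q7 cells, with median changes of -1.07 and -0.38, against -0.02 and 0.00 for all genes. The falls are 76.5% of the list in Q111 and 23.5% in Q7 cells, where 27.2% and 16.8% of all genes fell. The list's median stayed below 0 under the scalings run in both lines. With arrays centred on the median of genes it was -0.35 with 7 lower and 3 higher in Q111, and -0.03 with 2 lower and 0 higher in Q7 cells, and with the actin covariate 7 were lower in Q111 and 0 in Q7 cells. Ctdspl, Ctdsp1 and Ctdsp2 encode small phosphatases that act on REST and RNA polymerase. Ctdspl averaged 6.55 ± 0.68 at 42 °C, against 9.04 ± 0.40 at 33 °C, in Q111 cells (-2.49, SE 0.35, adjusted p = 0.000317), and Ctdsp1 changed by -1.72 (SE 0.24, adjusted p = 0.000317). Rcor2 and Rcor3, relatives of Rcor1, changed by -1.52 (SE 0.21, adjusted p = 0.000293) and -1.41 (SE 0.28, adjusted p = 0.00236). The call of Rcor3 was lost with arrays centred on the median of genes (adjusted p = 0.0641) and with the actin covariate (adjusted p = 0.053). Hdac1, a histone deacetylase of the complex, was the one that rose (0.46, SE 0.15, adjusted p = 0.0314). In Q7 cells the 4 that fell by their brightest probe sets included Smarca4, a chromatin remodeller (-1.13, SE 0.22, adjusted p = 0.00328), and Ctbp1 (-0.62, SE 0.17, adjusted p = 0.0216). The others were the deacetylase scaffolds Sin3a and Sin3b (both -0.93, adjusted p = 0.0046 and 0.00605). The dimmer probe sets of Sin3b disagreed. In Q7 cells they changed by -0.87, -0.90, 1.37 and -0.09 (adjusted p = 0.00345, 0.00214, 0.000403 and 0.699). The one that rose did so in Q111 cells too (0.95, adjusted p = 0.00238). No change of Sin3b as a whole is therefore given.

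Between the lines limma called 0 of these corepressor genes higher and 0 lower at 33 °C, against 4.52% and 4.86% of all genes. The list's median was 0.12, and the nearest to a call was Kdm5c, a histone demethylase gene (0.52, SE 0.16, adjusted p = 0.0899). At 42 °C 2 were higher and 5 lower in Q111 cells, against 5.50% and 13.9% of all genes. With arrays centred on the median of genes 3 were higher and 1 lower. Among the 5 called lower were Rcor2 (-1.08, SE 0.21, adjusted p = 0.00551), Ctdsp2 (-0.81, SE 0.17, adjusted p = 0.00851) and Ctdsp1 (-0.96, SE 0.24, adjusted p = 0.0203). The calls of Ctdsp2 and Ctdsp1 were lost with that centring (adjusted p = 0.124 and 0.0574). Dimmer probe sets of Ctdsp2 differed by 0.05 and -0.36 and were not called (adjusted p = 0.925 and 0.567). By its brightest probe set Kdm5c differed between the lines in its heat shock effect (-1.01, SE 0.23, adjusted p = 0.0429). This call held in 7 of 22 alternatives. That probe set read 9.46, 9.23 and 9.29 at 42 °C, against 10.87, 10.51 and 10.49 at 33 °C, in Q111 cells. In Q7 cells it read 9.68, 9.92 and 9.85 at 42 °C, against 10.31, 9.91 and 10.08 at 33 °C. Dimmer probe sets of Kdm5c gave differences of effects from -1.53 to 0.96, and none was called (adjusted p = 0.125 to 0.906). The one at 0.96 rose with heat shock in Q111 cells (1.09, adjusted p = 0.0237). Others fell there, the largest fall being -2.79 (adjusted p = 0.000136). No difference for Kdm5c as a whole is therefore given.

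Of 8 genes that set REST's turnover or its localization with huntingtin, 6 fell and 0 rose with heat shock in Q111 cells (median -1.07, and -0.35 with arrays centred on the median of genes), and 3 fell and 1 rose in Q7 cells (median -0.30, and 0.05 with arrays centred on the median of genes). The falls are 75.0% of the list in Q111 and 37.5% in Q7 cells, against 27.2% and 16.8% of all genes; with the actin covariate 4 fell in Q111 and 0 in Q7 cells. Btrc, the F-box gene whose product marks REST for degradation, averaged 5.43 ± 0.97 at 42 °C, against 8.03 ± 0.19 at 33 °C, in Q111 cells (-2.60, SE 0.41, adjusted p = 0.000685) and changed by -1.64 (SE 0.41, adjusted p = 0.0137) in Q7 cells. The Q7 call was lost with the actin covariate (adjusted p = 0.594), at an adjusted p under 0.01 and without replicate 2 of Q7 at 42 °C (-1.40, adjusted p = 0.0582). Usp7 and Usp15, genes of deubiquitinating enzymes that act on REST, fell in both lines by their brightest probe sets. Usp15 changed by -1.26 in Q111 and -1.22 in Q7 cells (SE 0.21, adjusted p = 0.000811 and 0.00146). Both Q7 calls were lost with the actin covariate (Usp7 -0.55, adjusted p = 0.432; Usp15 -0.67, adjusted p = 0.512). That of Usp7 was also lost with arrays centred on the median of genes (-0.38, adjusted p = 0.12). Hap1, which encodes huntingtin-associated protein 1, fell into background range in Q111 cells at 42 °C (4.79, 4.15 and 3.67, against 5.55, 6.21 and 5.67 at 33 °C; at least 1.59-fold, adjusted p = 0.00206). Between the lines at 33 °C 1 was higher and 0 lower (4.52% and 4.86% of all genes). Prickle1, which encodes a nuclear-envelope protein that binds REST, read 8.87, 8.49 and 7.86 on the Q111 arrays, against 6.46, 6.48 and 5.54 on the Q7 arrays (2.25, SE 0.32, adjusted p = 0.000929). Its 2 dimmer probe sets differed by 0.17 and 0.18 and were not called. At 42 °C 0 were higher and 2 lower in Q111 cells (5.50% and 13.9% of all genes). Those lower were Klc1 (-1.45, SE 0.26, adjusted p = 0.00337) and Hap1 (-1.40, SE 0.31, adjusted p = 0.0108). The 2 dimmer probe sets of Klc1 differed by 0.43 and 0.13 and were not called (adjusted p = 0.246 and 0.794).

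**Figure D3:**
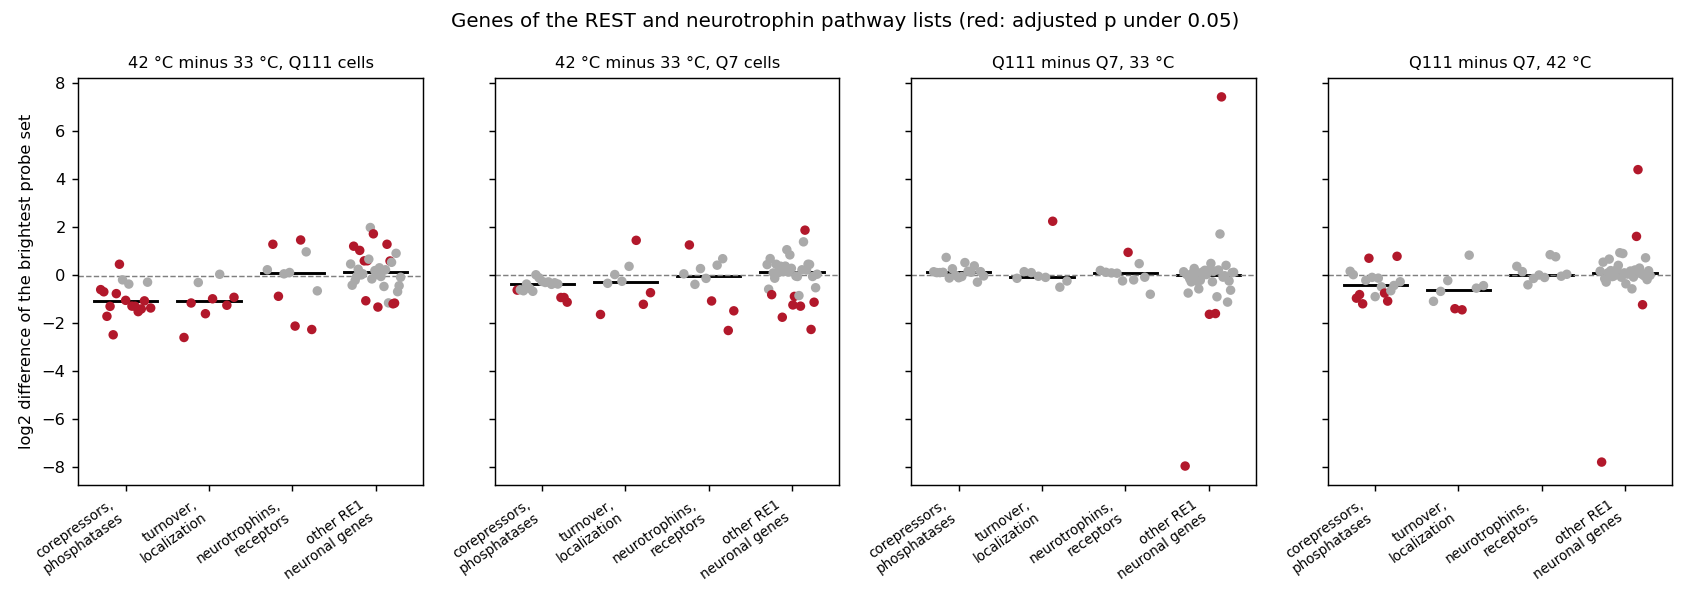
Log2 differences of the brightest probe set of each gene in 4 lists, by heat shock in each line and by line at each temperature; each point is a gene, red marks an adjusted p under 0.05, black bars are list medians and the dashed line the median of all genes. With heat shock in Q111 cells the medians of the corepressor and turnover lists lie at -1.07.

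Of 10 measured genes of neurotrophins, their receptors and their processing, 2 rose and 3 fell in Q111 cells with heat shock and 1 rose and 3 fell in Q7 cells. Of all genes 18.5% rose and 27.2% fell in Q111 cells, so the list's shares there are near the background. In Q7 cells 11.2% of all genes rose and 16.8% fell. Ntf5, a neurotrophin that shares Bdnf's receptor, read 4.25, 4.43 and 4.43 at 42 °C, against 6.29, 6.71 and 6.49 at 33 °C, in Q111 cells, at least 2.55-fold lower (adjusted p = 9.55e-05), and was lower in Q7 cells too (at least 1.32-fold, adjusted p = 0.00758). At 33 °C Ntf5 was the 1 gene of the list called between the lines, where 4.52% of all genes were called higher and 4.86% lower. It was higher in Q111 cells by 0.95 (SE 0.24, adjusted p = 0.0378), a call that held in 12 of 24 alternatives. Creb1, the activator of activity-dependent Bdnf transcription, rose by 1.29 (SE 0.16, adjusted p = 0.00019) in Q111 and 1.26 (SE 0.16, adjusted p = 0.000321) in Q7 cells. Ntrk2, the Bdnf receptor gene, rose in Q111 cells (at least 2.36-fold, adjusted p = 0.00588) and changed by 0.42 (SE 0.34, adjusted p = 0.432) in Q7 cells. Sorcs2, a sortilin-family receptor gene, fell in both lines, with changes of -2.27 (SE 0.35, adjusted p = 0.000603) in Q111 and -2.31 (SE 0.35, adjusted p = 0.000816) in Q7 cells. With the actin covariate the call of Ntrk2 in Q111 cells was lost (adjusted p = 0.085). So were those of Creb1, Sorcs2 and Ntf5 in Q7 cells (adjusted p = 0.267, 0.215 and 0.318). Ntf5 in Q7 cells was also lost with the replicate block and only the groups compared (adjusted p = 0.0695). At 42 °C 0 genes of the list were higher and 0 lower between the lines, against 5.50% and 13.9% of all genes.

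Of 34 measured other neuronal genes with RE1 elements, Q111 cells had 1 higher and 3 lower than Q7 cells at 33 °C, and 2 were higher and 2 lower at 42 °C. These are 2.9% and 8.8% of the list at 33 °C, against 4.52% and 4.86% of all genes. At 42 °C they are 5.9% and 5.9%, against 5.50% and 13.9%. Bex1, a brain-expressed signalling adaptor gene, read 2.88, 3.50 and 2.80 on the Q111 arrays, against 10.98, 11.09 and 11.02 on the Q7 arrays, at least 59.1-fold lower (adjusted p = 5.4e-09), and it read 2.59, 2.88 and 2.45 on the Q111 arrays, against 10.61, 10.39 and 10.32 on the Q7 arrays, at 42 °C. Scn3a, a neuronal sodium channel gene, went the other way, with 11.50, 11.12 and 11.03 on the Q111 arrays, against 2.63, 3.21 and 5.50 on the Q7 arrays at 33 °C (adjusted p = 1.08e-05). Of those Q7 arrays 2 of 3 are in background range, and with these set at the bound the difference is at least 62.0-fold. Its dimmer probe set, with a mean of 3.40, differed by 0.00 (adjusted p = 0.999). L1cam, a neural adhesion gene, was lower in Q111 cells by -1.63 (SE 0.32, adjusted p = 0.00849) and by -0.81 (adjusted p = 0.0206) in its other probe set; Nefm, a neurofilament gene, was called lower (adjusted p = 0.0113) with both groups' means in background range. The neural progenitor and fibroblast marker levels given above differ between the same groups.

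With heat shock 7 of the 34 rose and 4 fell in Q111 cells, and 1 rose and 7 fell in Q7 cells, with median changes of 0.12 in both lines. These are 20.6% and 11.8% of the list in Q111 cells, against 18.5% and 27.2% of all genes. In Q7 cells they are 2.9% and 20.6%, against 11.2% and 16.8%. The median was -0.03 in Q111 cells with arrays centred on ribosomal protein genes and -0.04 in Q111 and -0.01 in Q7 cells after quantile normalization. With arrays centred on the median of genes 23 rose and 1 fell in Q111 and 6 rose and 3 fell in Q7 cells, and with the actin covariate 0 rose and 0 fell in either. Gria2, a glutamate receptor subunit gene, read 6.84, 7.11 and 7.97 at 42 °C, against 5.17, 5.52 and 6.06 at 33 °C, in Q111 cells (1.72, SE 0.41, adjusted p = 0.00671). Syn1, the synapsin gene, fell in both lines. It changed by -1.17 (adjusted p = 0.0178) in Q111 cells. In Q7 cells it read 4.94, 3.89 and 4.08 at 42 °C, against 6.69, 6.96 and 6.06 at 33 °C, at least 2.69-fold (adjusted p = 0.000722). The complexin gene Cplx2 fell in both lines by its brightest probe set. In Q7 cells the change was -1.76 (SE 0.27, adjusted p = 0.00084). In Q111 cells it was -1.07 (SE 0.27, adjusted p = 0.00901). The next brightest was called in neither line (-0.63 in Q7 and -0.05 in Q111 cells, adjusted p = 0.0936 and 0.884). The dimmest fell in both (-2.25 in Q7 and -1.92 in Q111 cells, adjusted p = 0.00629 and 0.00962). No change of Cplx2 as a whole is therefore given. Of 27 windows for 22 of these genes 11.1% held the left RE1 part, in Syn1, Celsr3 and Unc13a, and 1 held both parts, that of Unc13a. The Syn1 match, shown because this gene fell with heat shock, is at chrX:20921130-20921150 on the minus strand, with the left part in capitals and the 12 bases that follow it.
Syn1 window: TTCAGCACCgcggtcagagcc
It spans positions -232 to -212 relative to the annotated start, on the gene's own strand.

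**Figure D4:**
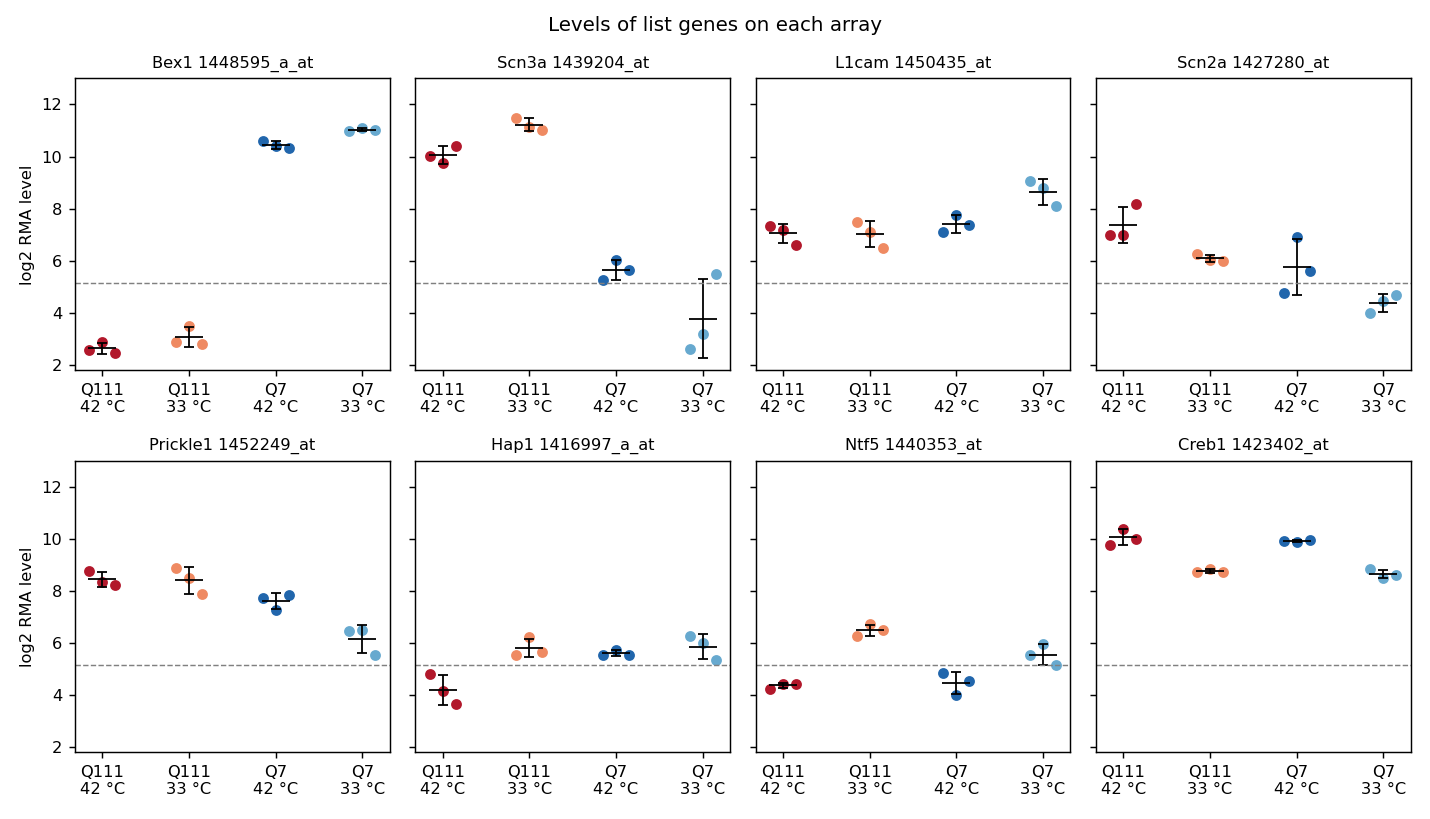
Log2 levels on each array of the brightest probe sets of 8 list genes, with the 4 groups on the x axis; points are arrays, black bars mean and SD of 3 arrays, and the dashed line is the background bound of 5.14. Bex1 lies at or below 3.50 on every Q111 array and at or above 10.32 on every Q7 array, and Scn3a lies at or above 9.75 on every Q111 array.

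Genes most like Rest and Bdnf over the 12 arrays were sought by the root mean square distance between profiles centred on their means, among 12202 genes whose brightest probe set averaged above background range. For Rest 1428227_at the nearest were Spin1 (0.0957), Tmem65 (0.105) and Ube2h (0.111), where the median distance was 0.581. For Bdnf 1422169_a_at they were Ptch1 (0.146), Zfp236 (0.165) and Kmt5b (0.200), where the median was 0.683. Both profiles are nearly flat, with an SD of 0.258 and 0.434 over the arrays. For Stmn2 1423281_at, added after its values were seen, the nearest were Lhx1 (0.517), Sall1 (0.648) and Tmem47 (0.682), where the median was 2.94.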

How the data were processed

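The authors deposited log2 levels per probe set of Affymetrix mouse whole-genome arrays, made with RMA per the submitters' processing notes; no version of it is named there. Scanner files were not used. Of 45101 probe sets 64 are controls. limma 3.58.1 (R 4.3.3) fitted 4 group means to all 12 arrays and every non-control probe set (8 residual degrees of freedom), and 5 contrasts were tested with p-values adjusted by Benjamini-Hochberg across the 45037. Genes come from the platform annotation, updated by gene identifier; 69 of 77 listed pathway genes and 50 of 53 markers had a probe set of 1 gene. The 9 genes, the lists and the alternatives were chosen with earlier results of these data known. Beyond every probe set of the 9 genes, up to 4 called genes a list and contrast with the largest difference were named, and others beside small counts were chosen after their values were seen. An "at least" fold sets the lower group at the background bound.

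The labels number the replicates. Departures from group means correlated between arrays of one number for the lines at 33 °C (r = 0.574, 0.422 and 0.616). They did so for heat shock in Q111 cells too (0.118, 0.257 and 0.304). The main differences, SEs and adjusted p-values nevertheless come from a fit without pairing. The replicate number entered as a block only in alternatives, which were run for every comparison. The number of arrays limits the precision. The fit was tested on simulated data, and alternatives of scaling, features, spread, pairing, RNA integrity, threshold and single arrays were run.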

Additional observations from a re-analysis of the deposited data

Results flagged for a closer look

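The effect of heat shock on Stmn2 differed between the lines by a test of the difference itself: for probe set 1423280_at the effect in Q111 cells minus that in Q7 cells was 1.76 (SE 0.26, limma adjusted p = 0.00837), with a rise in Q111 and a fall in Q7 cells. It was called in all 21 alternatives. The Q111 arrays at 33 °C are in background range, and the other probe set, 1423281_at, gave 1.71 without passing (adjusted p = 0.14).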

How the results depend on the processing

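The Stmn2 differences between the lines kept direction and call under every alternative, at -6.70 to -6.34 (1423281_at) and -5.36 to -5.00 (1423280_at) at 33 °C. With heat shock in Q111 cells, 6 of the 19 probe sets called became 2 of 9 with 1 probe set per gene, 13 with arrays centred on the median of genes, an alternative chosen after seeing the data, 2 with the actin covariate and 3 at an adjusted p under 0.01. In Q7 cells 2 became 0, 5, 0 and 1 under the same settings, and 1 with the replicate block and only the groups compared. Between the lines at 33 °C 2 became 1 with 1 probe set per gene and 4 with the replicate block and only the groups compared; after heat shock 3 became 1 with 1 probe set per gene; for the difference of effects 1 became 0 with 1 probe set per gene and 2 with arrays centred on the median of genes. With the replicate block Rcor1 1437545_at after heat shock was not called (adjusted p = 0.0623), nor, with only the groups compared, Bdnf 1422168_a_at for heat shock in Q7 cells (adjusted p = 0.0688); beside these and the 3 calls given in the report it changed no other call among the 19. The cause of these shifts was not tested, apart from the smaller number of probe sets tested with 1 per gene. Leaving out 1 array at a time gave 4 to 7 called for heat shock in Q111 cells, 1 to 3 in Q7 cells, 2 to 3 between the lines at 33 °C, 2 to 3 after heat shock and 1 to 2 for the difference of effects. The 1 in Q7 cells came without replicate 2 at 42 °C or at 33 °C, where Bdnf 1422168_a_at was lost, and the 2 for the difference of effects without replicate 3 of Q111 at 42 °C, where Stmn2 1423281_at was added. Of all called probe sets 47.1% were higher for heat shock in Q111 and 41.4% in Q7 cells, against 86.4% and 71.3% with arrays centred on the median of genes, and 34.7% in Q111 cells with arrays centred on ribosomal protein genes, which moved the median change by -0.15. After heat shock the share higher in Q111 cells was 30.7%, against 73.8% with arrays centred on the median of genes. For the difference of effects the share higher was 22.7%, against 60.6%. With the actin covariate 34.9% of called probe sets were higher in Q111 and 67.9% in Q7 cells, and among probe sets above background range 36.4% in Q111 cells.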
